A study of Mus musculus with 36 samples.

Results

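The genes of the proteasome subunits were described in mouse liver RNA. Members were all non-control probes whose gene name in the scanner files began with Psma, Psmb, Psmc, Psmd or Psme followed by a number. This gave 66 probes of 41174 distinct probes on the array and 43 of 27745 gene names, of which 42 are proteasome genes. The remaining name, Psmc3ip, matched the pattern but belongs to a protein of meiotic recombination that is not a proteasome subunit, and it was kept out of the counts of genes. Of the 66 probes, 62 were in the table of expressed probes deposited by the authors, which held 21781 probes, and each of the 42 genes had at least 1 probe there. The other 4 probes (1 each of Psma2, Psmd11, Psmd14 and Psme4) had Cy5 signals between 1.188 and 1.611 times the local background. The thymus form of the catalytic subunit, Psmb11, is listed on the array under an older name that the pattern did not match, and its 2 probes had signals of 1.33 and 1.67 times background.

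The samples were livers of 36 fasted adult male C57BL/6J mice (C57BL/6JOlaHsd in the study's methods), 12 per group, all fed a mild-high-fat diet with 30% of its energy as fat. Baseline mice (t=0) were sacrificed after an adaptation phase, control mice (HF) ate the same diet for a further 12 weeks, and quercetin mice (HF-Q) ate it for 12 weeks with 0.33% (w/w) quercetin, a plant flavonol. The comparison of HF-Q with HF addresses the supplement. In HF against t=0, by contrast, the age of the mice, the time on the diet and any difference of day cannot be told apart. Each 2-colour array held Cy5-labelled RNA of 1 mouse against a Cy3-labelled reference pool of all samples, and values are log2 levels relative to that pool on a scale that keeps each spot's brightness. Levels were therefore compared between mice for the same probe and not between probes. The number of arrays limits the precision.

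The proteasome is the main protease of the cytosol and nucleus and degrades proteins that carry ubiquitin chains. Its barrel-shaped core particle is made of outer rings of alpha subunits (Psma genes) and inner rings of beta subunits (Psmb genes), of which the products of Psmb5, Psmb6 and Psmb7 cut peptide bonds. Interferon induces alternative catalytic subunits, encoded by Psmb8, Psmb9 and Psmb10, which take the places of Psmb5, Psmb6 and Psmb7 products in newly made particles to form the immunoproteasome, known for making peptides for MHC class I. A regulatory particle of ATPases (Psmc genes) and non-ATPase subunits (Psmd genes) binds the ubiquitin chain and feeds the unfolded protein into the core, and Psme genes encode alternative caps. In liver most of the cell mass is hepatocytes, and all cells carry the standard particle. In whole-liver RNA a change in the share of a cell type and a change in RNA per cell cannot be told apart.

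The immunoproteasome genes varied most between mice of the 42 genes, as given further on, and their upstream sequence is shown for this reason, with that of Psmb5 as the standard counterpart of Psmb8. RefSeq promoter windows (GRCm38.p6) were found for 35 of the 42 genes, in 38 windows. Each sequence below ends at the base before the RefSeq start site and runs 5′ to 3′ along the gene's strand. Capitals mark matches on either strand to a gamma-activated sequence (TTCNNNGAA), an interferon response core (GAAANNGAAA), an antioxidant response core (TGACNNNGC) or a CCAAT box (CCAAT).
Psmb8 (chr17:34197945-34198194, plus strand): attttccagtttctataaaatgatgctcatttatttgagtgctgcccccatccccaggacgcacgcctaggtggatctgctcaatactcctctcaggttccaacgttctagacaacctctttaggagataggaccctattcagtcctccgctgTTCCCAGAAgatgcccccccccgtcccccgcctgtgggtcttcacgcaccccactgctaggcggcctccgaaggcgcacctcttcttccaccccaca
Psmb9 (chr17:34187331-34187555, minus strand): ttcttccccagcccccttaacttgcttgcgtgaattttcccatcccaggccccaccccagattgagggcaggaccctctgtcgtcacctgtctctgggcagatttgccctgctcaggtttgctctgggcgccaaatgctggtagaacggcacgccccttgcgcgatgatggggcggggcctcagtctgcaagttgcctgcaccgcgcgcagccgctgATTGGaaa
Psmb10 (chr8:105938393-105938642, minus strand): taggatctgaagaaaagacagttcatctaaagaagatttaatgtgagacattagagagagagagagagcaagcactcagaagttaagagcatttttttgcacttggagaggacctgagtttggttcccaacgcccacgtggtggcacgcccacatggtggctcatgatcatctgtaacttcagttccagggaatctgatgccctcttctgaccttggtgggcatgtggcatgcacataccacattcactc
Psmb5 (chr14:54617996-54618245, minus strand): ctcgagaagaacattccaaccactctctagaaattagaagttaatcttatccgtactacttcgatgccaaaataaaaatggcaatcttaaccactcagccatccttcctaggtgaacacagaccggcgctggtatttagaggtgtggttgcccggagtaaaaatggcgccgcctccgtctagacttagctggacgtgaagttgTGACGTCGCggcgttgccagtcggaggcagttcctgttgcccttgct

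The window of Psmb8 held a gamma-activated sequence at -97 to -89 from the start site, a motif found in 8.3% of all 32851 windows of 300 bases and in 2 of the 38 proteasome windows (5.26%), those of Psmb8 and Psmd2. Psmb9 lies head to head with Tap1, a peptide transporter gene, and their windows shared 275 bases. The Psmb9 sequence held a CCAAT box, a motif of 37.4% of all windows and 34.2% of the proteasome windows. None of the 4 motifs was found in the printed sequence of Psmb10. The interferon response core was in 3.44% of all windows and in 4 of the 38 proteasome windows, those of Psmb3, Psmd4, Psmd9 and Psme1. The antioxidant response core was in 12.4% of all windows and in 6 proteasome windows (15.8%), among them Psmb5 and Psmb6. These matches describe the letters in these windows.

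Before the results, 3 arrays need naming. On the array of HF-Q replicate 2, 96.72% of spots were well above background in Cy5, against 56.4 to 67.4% on the other 35 arrays. HF replicate 9 had the highest HF values of Psmb8, Psmb9, Psmb10, Psme1 and Psme2, while 65.15% of its spots were well above background in Cy5. In t=0, replicate 4 had the highest values of Psmb8, Psmb9 and Psme1, at 13.45, 13.08 and 14.90. Its Psmb10 value of 14.82 equalled that of replicate 10, the highest, at the printed precision, while Psme2 was highest in replicate 7. Replicate 4 was also the highest t=0 mouse for all 5 antigen-presenting cell markers and all 6 macrophage markers. Among the genes called higher in HF below, it was the lowest t=0 mouse for Psma2, Psma3 and Psmd12 (14.96, 13.13 and 14.09). For Psmd3 it was the highest (15.21). It was the lowest t=0 mouse for the hepatocyte markers Alb, Cps1, Cyp2e1 and Ttr, but not for Apoa1. Its Cd74 was at 13.66, against a t=0 median of 11.75. Where leaving out HF-Q replicate 2 or HF replicate 9 changed a call on a gene named below, the value without it is given too. No fit left out t=0 replicate 4. In HF against t=0, 2 of 5 hepatocyte markers fell, Cps1 and Cyp2e1 (log2 differences -0.32 and -0.36, adjusted p = 0.0184 and 0.0156 by limma), while Alb, Apoa1 and Ttr were at 0.03, 0.08 and -0.21 and did not pass. Of 4 cholangiocyte markers 3 rose, Sox9 by 0.64, Krt19 by 0.42 and Krt7 by 0.29 (adjusted p = 0.00114, 0.0269 and 0.0220), and the endothelial marker Pecam1 fell by 0.34 (adjusted p = 0.00360). With slide as a block Krt19 and Krt7 did not pass (adjusted p = 0.0648 and 0.0535). In HF-Q against HF, Sox9 fell by 0.60 and Pecam1 rose by 0.38 (adjusted p = 0.00053 and 0.00734). Of 5 antigen-presenting cell markers, H2-Aa and H2-Ab1 passed in HF against t=0 (0.58 and 0.68, adjusted p = 0.0448 and 0.0373), and H2-Eb1, Cd74 and Itgax, at 0.49, 0.40 and -0.01, did not. H2-Aa and H2-Ab1 no longer passed without HF replicate 9 (adjusted p = 0.0733 and 0.0636), with loess (0.0615 and 0.0655) or with slide as a block (0.0797 and 0.0685). Of 6 macrophage markers none passed the test in any comparison, although all 6 were above 0 in HF against t=0 (median 0.27), and of 7 lymphocyte markers 1 passed, Ms4a1. None of 4 stellate cell markers passed. The level of the 5 antigen-presenting cell markers, as the mean over genes of the log2 value minus its mean over all 36 mice, ran from -0.79 to 1.34 in t=0 (median -0.37), from -0.38 to 0.89 in HF (median 0.25) and from -0.62 to 0.85 in HF-Q (median 0.18). That of the 6 macrophage markers had medians of -0.34, 0.08 and 0.09. The part of these cells in the results below was not tested.

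In control mice against baseline mice, a minority of the proteasome genes were higher, by small amounts. Of the 42 genes, each taken by its brightest probe, 13 rose, none fell and 29 did not pass the test (limma, adjusted p under 0.05 over all 21781 probes). The median log2 difference was 0.15, and 38 of 42 were positive. The rises were small, from 0.17 for Psmd12 to 0.27 for Psma3 outside the immunoproteasome, that is 1.13-fold to 1.21-fold, with 0.52 for Psmb8. Counted by probe, 17 of 62 passed (27.4%), against 21.3% of all probes, so the share in either direction was near that of the table. By direction, 16 probes were higher (25.8%, against 10.9% of all probes) and 1 was lower (1.61%, against 10.4%). With the scanner signals centred on the median of each array in place of the authors' scale, 22 member probes were higher and none lower, while the split over all probes moved from 2384 higher and 2261 lower to 3081 and 543.

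The standard core particle contributed 6 of the 13 risen genes among its 15. Among 8 alpha ring genes 4 rose. Psma7 ranged from 15.03 to 15.35 in t=0 mice (median 15.18), from 15.09 to 15.75 in HF mice (median 15.43) and from 15.20 to 15.48 in HF-Q mice (median 15.36). All but 1 of the 12 HF mice lay above the t=0 median, with overlap of the groups, and the difference was 0.25 ± 0.06 (SE, n = 12 per group, adjusted p = 0.00783). Psma3 rose by 0.27 ± 0.08 (adjusted p = 0.0210), from a median of 13.58 (13.13 to 13.85) in t=0 to 13.81 (13.46 to 14.33) in HF. Psma2 rose by 0.20 ± 0.07 (adjusted p = 0.0274), from a median of 15.29 (14.96 to 15.52) to 15.47 (15.21 to 15.76). Psma5 rose by 0.23 ± 0.08 (adjusted p = 0.0283), from 15.07 (14.94 to 15.21) to 15.37, with a wider HF range of 14.82 to 15.70. In HF-Q against t=0 Psma3 was at 0.20 (adjusted p = 0.0607, 0.0440 without HF-Q replicate 2 and 0.0126 with loess). In HF-Q mice the medians of Psma3, Psma2 and Psma5 were 13.80, 15.29 and 15.18. Psma1, Psma4 and Psma6 did not pass, at 0.12, 0.00 and 0.10. Psma8, an alpha subunit known from the testis, gave a dim signal at 4.104 times background. All 12 HF mice (7.16 to 7.73) were under the t=0 median of 7.74, and its difference of -0.26 did not pass (adjusted p = 0.0544). With loess the Psma8 difference was -0.12 (adjusted p = 0.3).

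Of the standard catalytic genes, Psmb5 and Psmb6 rose and Psmb7 did not. Psmb5, the chymotrypsin-like subunit gene, ranged from 13.34 to 13.64 in t=0 (median 13.51), from 13.39 to 13.97 in HF (median 13.70) and from 13.40 to 13.86 in HF-Q (median 13.62). The groups overlapped, with 10 of 12 HF mice above the t=0 median, and the difference was 0.20 ± 0.06 (adjusted p = 0.0134). Psmb6, the caspase-like subunit gene, ran from 14.68 to 15.25 in t=0 (median 15.06), from 15.07 to 15.70 in HF (median 15.25) and from 15.06 to 15.56 in HF-Q (median 15.24). All 12 HF mice exceeded the t=0 median, and the difference was 0.26 ± 0.07 (adjusted p = 0.00911). Psmb7, the trypsin-like subunit gene, had medians of 12.40 (11.94 to 12.62), 12.27 (12.17 to 12.46) and 12.25 (11.99 to 12.76) in t=0, HF and HF-Q. Its difference of -0.05 had a 95% interval of -0.19 to 0.09 (adjusted p = 0.610). The 4 structural beta genes lay between 0.08 and 0.21 and none passed, with Psmb2 at 0.21 (adjusted p = 0.134) and Psmb3 at 0.17 (adjusted p = 0.0669).

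**Figure D1:**
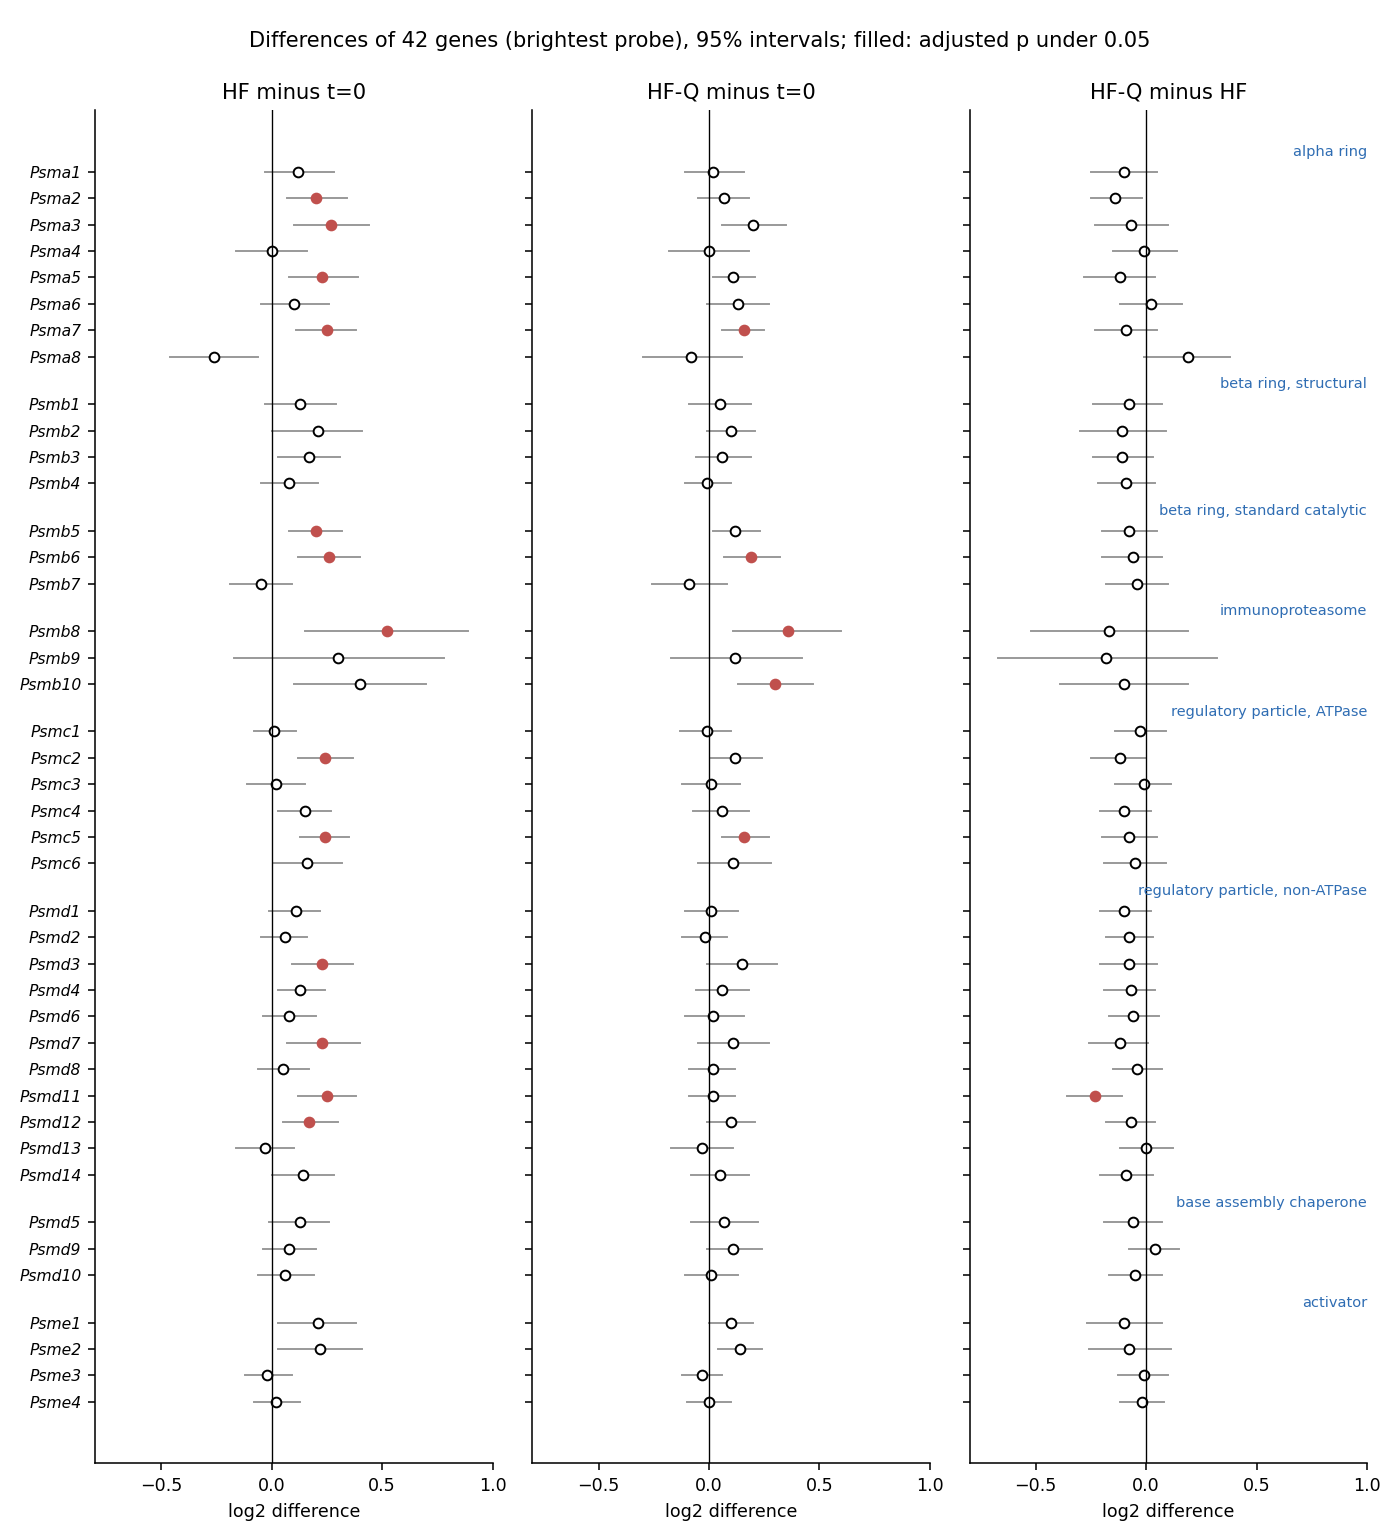
Log2 differences of the 42 proteasome genes (rows, brightest probe, grouped by role) for HF minus t=0, HF-Q minus t=0 and HF-Q minus HF, with 95% intervals from limma and 12 mice per group. Filled points have an adjusted p under 0.05: 13 genes in the left panel, 5 in the middle and Psmd11 alone in the right.

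In the regulatory particle 6 of 17 genes rose in HF against t=0 and none fell. Psmc5, an ATPase of the base, ran from 12.09 to 12.39 in t=0 (median 12.19), from 12.17 to 12.80 in HF (median 12.41) and from 12.17 to 12.55 in HF-Q (median 12.36). Its 2 probes gave differences of 0.24 ± 0.05 and 0.22 ± 0.05 (adjusted p = 0.00306 and 0.00403), and HF was higher on all 9 slides. Psmc2, another ATPase, rose at its brightest probe from a median of 14.20 (14.00 to 14.43) to 14.47 (14.15 to 14.71), with 14.31 (14.04 to 14.57) in HF-Q. That difference was 0.24 ± 0.06 (adjusted p = 0.00489), while a dim second probe gave -0.03. Psmd11, a scaffold subunit of the lid, rose by 0.25 ± 0.06 (adjusted p = 0.00506). Psmd3, Psmd7 and Psmd12, further subunits of the lid, rose by 0.23, 0.23 and 0.17 (adjusted p = 0.0159, 0.0358 and 0.0463). Psmd3 went from a median of 14.87 (14.54 to 15.21) to 15.09 (14.86 to 15.22), and its HF-Q median was 15.03 (14.73 to 15.25). Psmd7 went from 11.86 (11.29 to 12.14) to 12.11 (11.84 to 12.36), with 11.93 (11.72 to 12.19) in HF-Q. Psmd12 went from 14.39 (14.09 to 14.57) to 14.56 (14.24 to 14.81), with 14.48 (14.35 to 14.66) in HF-Q. The groups overlapped for each of these genes. Psmd12 did not pass without HF replicate 9 (0.16, adjusted p = 0.0702). With slide as a block Psmd12, Psmd7, Psma2 and Psma5 did not pass (adjusted p = 0.069, 0.105, 0.0501 and 0.0545). For Psmd7 the 2 other probes gave 0.10 and 0.05 and did not pass. Psmd4, a ubiquitin receptor, and Psmd14, the deubiquitinase of the lid, were at 0.13 and 0.14 and did not pass.

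The chaperones that assemble the base, Psmd5, Psmd9 and Psmd10, were at 0.13, 0.08 and 0.06 and none passed. Of the alternative caps, the interferon-inducible Psme1 and Psme2 were at 0.21 ± 0.09 and 0.22 ± 0.09 (adjusted p = 0.0858 and 0.0886), and Psme3 and Psme4 at -0.02 and 0.02. Psme1 ran from 14.42 to 14.90 in t=0, from 14.51 to 15.66 in HF and from 14.58 to 14.83 in HF-Q, with medians of 14.62, 14.80 and 14.73. In HF-Q against t=0 Psme2 was at 0.14 (adjusted p = 0.0613, and 0.0358 without HF-Q replicate 2). Psme2 ran from 15.23 to 15.69, from 15.39 to 16.55 and from 15.49 to 15.83, with medians of 15.51, 15.66 and 15.63. The probe that fell was a dim one of Psme4, the gene of a nuclear cap, at -0.25 ± 0.07 (adjusted p = 0.00913), while the brightest Psme4 probe did not move. In 7 of the 42 genes the probes differed in sign in this comparison.

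The size of these differences was tied to brightness in the authors' values. Of the 62 member probes, 38 were in the brightest class (mean log2 Cy5 signal over 12). There the median difference between HF and t=0 was 0.1666 for members and 0.0643 for all 3344 probes, and 13 members (of 38) passed against 24.9% of all probes in the class. In dim probes (under 8) the median over all probes was -0.0577. After loess normalization of the scanner signals, which removes such a trend on each array, the medians of the brightest class were 0.1042 for members and 0.0101 for all probes, and 31 of 38 members were positive. With loess 15 member probes passed (24.2%, against 21.3% of all probes), with 13 higher, 1 of them of Psmc3ip, and 2 lower. By genes 10 passed and the median of the 42 was 0.09. Psmd3, Psma5 and Psmb8 no longer passed with loess (adjusted p = 0.155, 0.0582 and 0.0779).

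**Figure D2:**
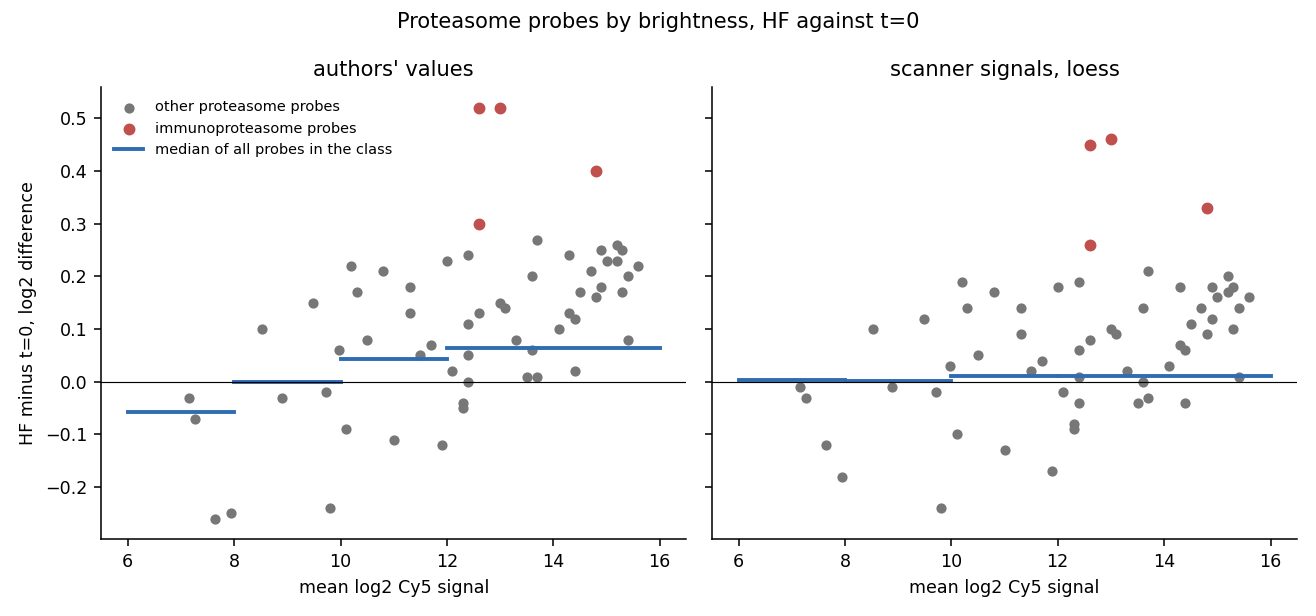
HF minus t=0 log2 differences of the proteasome probes against mean log2 Cy5 signal, from the authors' values (left) and after loess of the scanner signals (right). Blue lines give the median of all probes per brightness class, which runs from -0.0577 to 0.0643 on the left and from 0.0012 to 0.0109 on the right, and the immunoproteasome probes (red) are the highest points in both.

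The immunoproteasome genes had the highest values of the difference and also the widest spread between mice. Psmb8 ran from 12.17 to 13.45 in t=0 (median 12.66), from 12.50 to 14.95 in HF (median 13.14) and from 12.46 to 13.39 in HF-Q (median 13.09). In HF, 11 of 12 mice lay above the t=0 median, the groups overlapped, and the difference was 0.52 ± 0.18 (1.44-fold, adjusted p = 0.0392). The second Psmb8 probe gave the same 0.52 (adjusted p = 0.0387). Psmb10 ran from 13.95 to 14.82 in t=0 (median 14.54), from 14.43 to 16.40 in HF (median 14.83) and from 14.51 to 15.12 in HF-Q (median 14.79). Its difference of 0.40 ± 0.15 missed the threshold (adjusted p = 0.0512), with 11 of 12 HF mice above the t=0 median. Psmb9 ran from 12.07 to 13.08 in t=0 (median 12.29), from 11.93 to 15.09 in HF (median 12.51) and from 11.67 to 13.19 in HF-Q (median 12.64), and its difference of 0.30 had a 95% interval of -0.17 to 0.78 (adjusted p = 0.353).

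HF replicate 9 held the top value of all 3 genes. Against the other 11 HF mice it was higher by 1.90 for Psmb8 (3.73-fold, mean of the others 13.05 ± 0.24 SD), by 2.60 for Psmb9 (6.06-fold, 12.49 ± 0.31) and by 1.62 for Psmb10 (3.07-fold, 14.78 ± 0.18). Psme1 and Psme2 were each higher by 0.90 in the same mouse. The other 37 proteasome genes were not: their median difference was 0.03 and 2 of them, Psma1 and Psma5, were highest in this mouse. Of 14 genes of antigen processing and interferon response, 13 had their highest HF value in this mouse, with a median excess of 1.61 and a top of 4.18 for Igtp, an interferon-inducible GTPase. Of 5 antigen-presenting cell markers 4 were highest there, and of 6 macrophage and 7 lymphocyte markers none was. Of the 6 macrophage markers 3 lay above the mean of the other 11 HF mice, with a median difference of 0.07. The largest was that of Marco, at 1.94 (13.72 against 11.78). The array signal of this mouse was ordinary, as given above, and the part of cell composition in its values was not tested.

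Without HF replicate 9 the Psmb8 difference was 0.36 (adjusted p = 0.0261) and that of Psmb10 was 0.27, which then passed (adjusted p = 0.0282). For Psmb9 it was 0.09 (adjusted p = 0.658). With loess and without this mouse Psmb8 and Psmb10 were at 0.30 and 0.19 and neither passed (adjusted p = 0.0668 and 0.111). With slide as a block in the authors' values neither passed (adjusted p = 0.0973 and 0.120), although HF was higher than t=0 on 8 of 9 slides for both.

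**Figure D3:**
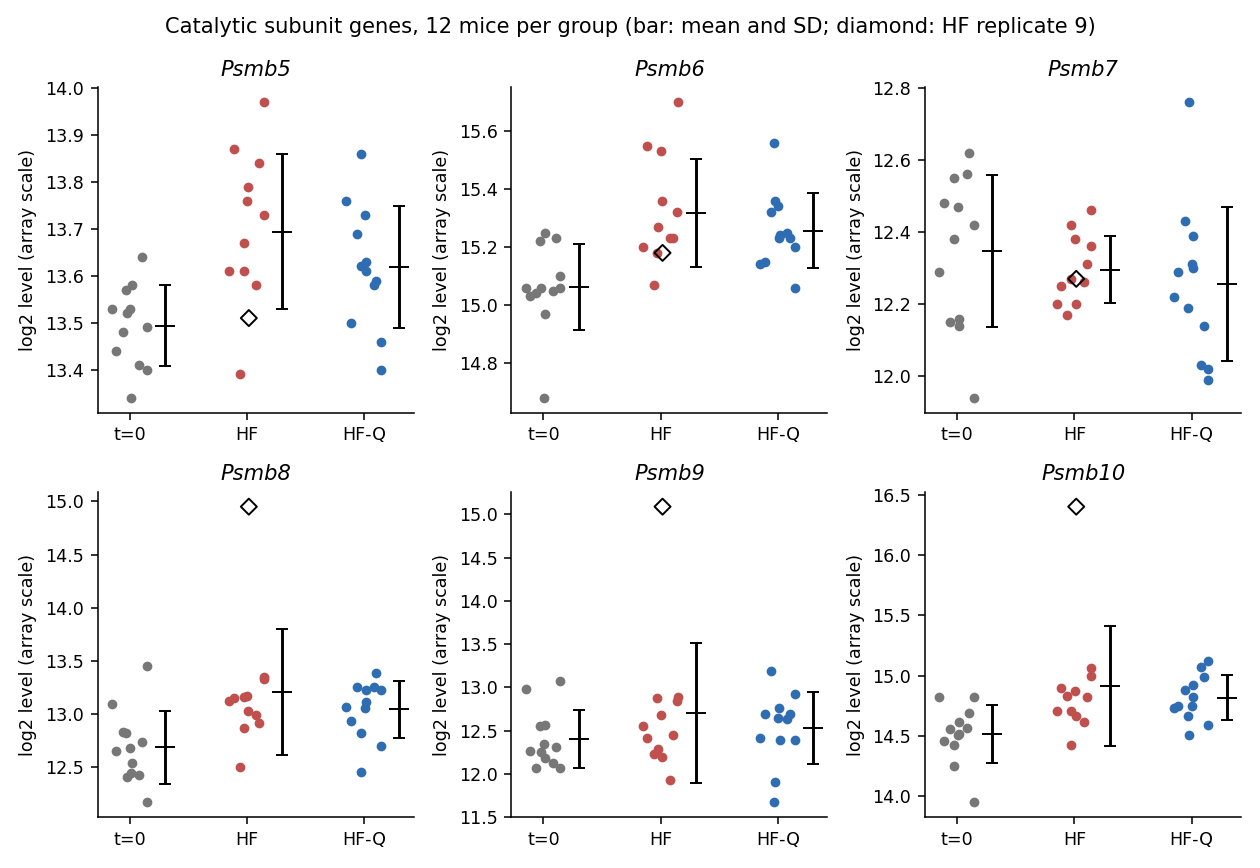
Log2 levels of the 3 standard catalytic genes (top) and the 3 immunoproteasome genes (bottom) in each mouse by group, with mean and SD of 12 mice. HF replicate 9 (diamond) lies at 14.95, 15.09 and 16.40 for Psmb8, Psmb9 and Psmb10, above the other 35 mice, and is not the highest HF mouse for Psmb5, Psmb6 or Psmb7.

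Quercetin mice against baseline mice showed smaller differences. Of the 42 genes 5 were higher and none lower, and the median difference was 0.07. By probe 6 of 62 passed (9.68%, against 11.9% of all probes), all of them higher (6.62% of all probes were higher and 5.3% lower). With loess 6 passed too (9.68%, against 14.6% of all probes), though not all the same ones. Without HF-Q replicate 2, 10 of 62 passed, against 2761 of all 21781 probes. Psmc5 was at 0.16 ± 0.05 and 0.26 ± 0.05 at its probes (adjusted p = 0.0362 and 0.00200). Psma7 was at 0.16 ± 0.05 (adjusted p = 0.0301) and Psmb6 at 0.19 ± 0.06 (adjusted p = 0.0306). Psmb10 was at 0.30 ± 0.08 (1.23-fold, adjusted p = 0.0209) and Psmb8 at 0.36 ± 0.12 (1.28-fold, adjusted p = 0.0469), each with 11 of 12 HF-Q mice above the t=0 median. The second probe of Psmb8 was at 0.34 and did not pass (adjusted p = 0.0677), although it did without HF-Q replicate 2 (adjusted p = 0.0409). With loess neither Psmb8 probe passed (adjusted p = 0.0605 and 0.0801). With slide as a block Psmc5 alone of the 5 genes passed, with adjusted p = 0.104 for Psmb8, 0.0641 for Psmb10, 0.0715 for Psma7 and 0.0654 for Psmb6. Psmb9 was at 0.12 (adjusted p = 0.626), Psmb5 at 0.12 (adjusted p = 0.106, and 0.044 without HF-Q replicate 2) and Psmd11 at 0.02 (adjusted p = 0.874). Both comparisons with baseline share the t=0 mice.

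In quercetin mice against control mice 1 of the 42 genes passed, Psmd11. Psmd11 ran from 14.52 to 14.88 in t=0 (median 14.81), from 14.55 to 15.25 in HF (median 15.02) and from 14.53 to 14.95 in HF-Q (median 14.78). All 12 HF-Q mice lay below the HF median, though the ranges overlapped because the lowest HF mice, at 14.55 and 14.91, lay within the HF-Q range. The difference was -0.23 ± 0.06 (0.85-fold, 95% interval -0.36 to -0.11, adjusted p = 0.0404), and HF-Q was lower on 8 of 9 slides. With loess it was -0.20 (adjusted p = 0.0179). It did not pass without HF-Q replicate 2 (-0.21, adjusted p = 0.0662), without HF replicate 9 (-0.24, adjusted p = 0.0520) or with slide as a block (-0.20, adjusted p = 0.123). By probe this is 1 of 62 (1.61%), against 2.36% of all probes in either direction and 0.863% lower.

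The other 41 genes did not pass, and most differences were slightly negative, with a median of -0.08 over the 42 genes and 38 below 0. Brightness moved with this as well: in the brightest class 1 of 38 member probes was positive, with a median of -0.0777 against -0.038 for all probes, and with loess the median of members was -0.0433 against -0.0021. With loess and without HF replicate 9, 36 of 62 member probes were negative and their median was -0.0061. By role the medians ran from -0.05 for the activators and base chaperones to -0.17 for the immunoproteasome. Psmb8, Psmb9 and Psmb10 were at -0.17, -0.18 and -0.10 (adjusted p = 0.671, 0.758 and 0.767), with 95% intervals of -0.52 to 0.19, -0.67 to 0.32 and -0.39 to 0.19. Without HF replicate 9 they were at -0.01, 0.04 and 0.03. Psmb5, Psmb6 and Psmb7 were at -0.08, -0.06 and -0.04, with intervals of -0.20 to 0.05, -0.20 to 0.07 and -0.18 to 0.10.

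Whether an immunoproteasome gene changed more than the standard gene it replaces was tested per mouse, as Psmb8 minus Psmb5, Psmb9 minus Psmb6 and Psmb10 minus Psmb7. Of 9 tests (3 pairs in 3 comparisons, two-sided permutation tests of 100000 resamples, adjusted over the 9) none passed, and 2 had an unadjusted p under 0.05. Psmb10 minus Psmb7 differed by 0.45 ± 0.18 (SE) in HF against t=0 (p = 0.00868, adjusted p = 0.0604, 11 of 12 HF mice above the t=0 median) and by 0.39 ± 0.15 in HF-Q against t=0 (p = 0.0134, adjusted p = 0.0604, 11 of 12 mice). Without HF replicate 9 the first was 0.32 (adjusted p = 0.0834). For Psmb8 minus Psmb5 the differences were 0.32 and 0.23 (adjusted p = 0.26 in both), and for Psmb9 minus Psmb6 they were 0.05 and -0.07. Between HF-Q and HF the 3 pairs differed by -0.09, -0.12 and -0.06, with SEs of 0.20, 0.28 and 0.18.

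From mouse to mouse, Psmb9, Psmb8 and Psmb10 had the largest spread of the 42 genes, with SDs within groups of 0.56, 0.42 and 0.34 against a median of 0.15. Without HF replicate 9 these were 0.36, 0.29 and 0.20. Their levels varied together. Over 36 mice, with each value taken relative to its group mean, Pearson's r was 0.88 for Psmb8 and Psmb9, 0.89 for Psmb8 and Psmb10 and 0.85 for Psmb9 and Psmb10 (Spearman's rho 0.75, 0.80 and 0.67). Each had p = 1e-05, the smallest the 100000 permutations within groups can give, for r and for rho, and adjusted p = 2.25e-05 over 9 pairs for r and 3e-05 for rho. Leaving out the 2 mice farthest from the median of the first gene gave 0.71, 0.73 and 0.60, leaving out HF replicate 9 gave 0.73, 0.73 and 0.60, and within slides r was 0.87, 0.88 and 0.86.

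Standard and immunoproteasome genes did not vary together beyond the permutations. For Psmb5 and Psmb8, Psmb6 and Psmb9, and Psmb7 and Psmb10, r was -0.05, -0.15 and -0.20 (rho 0.07, -0.10 and -0.14), with permutation p = 0.814, 0.431 and 0.128 for r and 0.687, 0.555 and 0.411 for rho, and adjusted p = 0.814, 0.485 and 0.164 for r and 0.687, 0.624 and 0.529 for rho. Within slides the last pair had r = -0.39. Among standard genes Psmb5 and Psmb6 had r = 0.71 (rho 0.70, p = 1e-05 and 3e-05, adjusted p = 2.25e-05 and 6.75e-05, permutation tests), with 0.61 without the 2 farthest mice, 0.71 within slides and 0.55 with loess. Psmb5 and Psmb7 had r = 0.36 (rho 0.38, permutation p = 0.0178 and 0.0205, adjusted p = 0.0320 and 0.0369), with 0.31 without the 2 farthest mice and -0.04 with loess, but 0.80 with median centring of the scanner signals, so that it changed with the scaling. Psmb6 and Psmb7 had r = 0.26 (rho 0.32, permutation p = 0.107 and 0.0490, adjusted p = 0.161 and 0.0734).

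**Figure D4:**
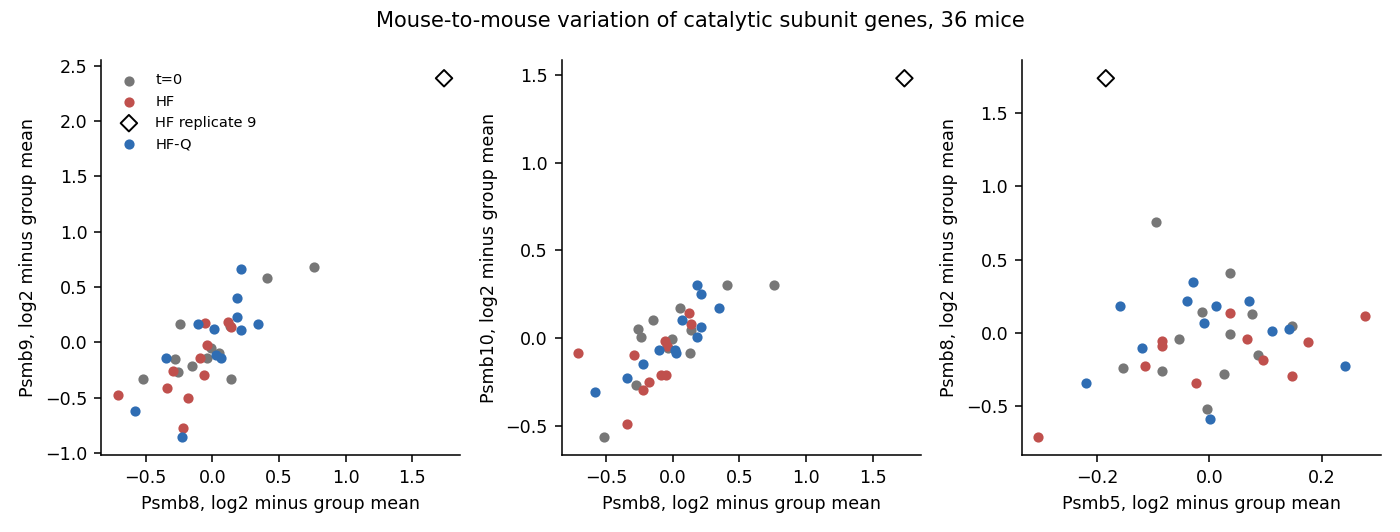
Log2 levels of Psmb8 with Psmb9, of Psmb8 with Psmb10 and of Psmb5 with Psmb8 in 36 mice, each minus the mean of its group. The first pair of panels rises along a line (r = 0.88 and 0.89, and 0.73 in both without HF replicate 9, the diamond), and the last does not (r = -0.05).

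The partners of Psmb8, Psmb9 and Psmb10 were looked at in 18 further correlations, chosen after the values had been seen, and those with 5 genes are given here. With Irf1, a transcription factor that interferon induces, r was 0.79, 0.80 and 0.83 (0.60, 0.62 and 0.67 without that mouse). With the dim Tap1 probe r was 0.85, 0.90 and 0.79 (0.62, 0.73 and 0.38 without it). With Cd74, the invariant chain of antigen-presenting cells, r was 0.72, 0.65 and 0.53 (0.85, 0.77 and 0.60 without it). With Ptprc, a marker of all leukocytes, r was 0.44, 0.40 and 0.32 (0.53, 0.49 and 0.37), and with Clec4f, a marker of Kupffer cells, 0.26, 0.13 and 0.08 (0.59, 0.42 and 0.36). Spearman's rho was 0.60, 0.71 and 0.71 for Irf1, 0.66, 0.71 and 0.53 for Tap1, 0.75, 0.78 and 0.60 for Cd74, 0.41, 0.54 and 0.47 for Ptprc, and 0.43, 0.25 and 0.34 for Clec4f. The permutation p, adjusted over the 18, was at most 0.00123 for r and at most 0.00209 for rho with Irf1, Tap1 and Cd74. For Clec4f the adjusted permutation p was 0.112, 0.397 and 0.622 for r and 0.0112, 0.138 and 0.0472 for rho. Without HF replicate 9 that of r was 0.0018, 0.0133 and 0.0665. For Psmb10 with Ptprc it was 0.0519 for r, 0.00573 for rho and 0.0526 for r without HF replicate 9. The part of immune-cell content in these correlations was not tested.

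Partner genes of the proteasome moved in HF against t=0 in both directions. In that comparison 10.9% of all probes were higher and 10.4% lower, the background for the counts that follow. Of 12 assembly and partner genes 5 rose and 1 fell. Adrm1, a ubiquitin receptor of the regulatory particle, rose by 0.29 ± 0.05 (adjusted p = 0.000431), from a median of 11.63 (11.33 to 11.81) to 11.93 (11.62 to 12.05). Uchl5 and Usp14, deubiquitinases bound to the regulatory particle, rose by 0.25 and 0.16 (adjusted p = 0.00795 and 0.0373). The small lid subunit Sem1 rose by 0.21 and Txnl1, a thioredoxin-like protein of the particle, by 0.20 (adjusted p = 0.0324 and 0.0394). Usp14 and Txnl1 did not pass without HF replicate 9 (adjusted p = 0.0567 and 0.0514) or with loess (0.0563 and 0.0954), nor Sem1 with slide as a block (0.109). Psmf1, which encodes an inhibitor of the core particle, fell by 0.32 ± 0.05 (adjusted p = 5.04e-05), with medians of 9.08 (8.89 to 9.17) in t=0 and 8.69 (8.58 to 8.97) in HF. In HF-Q against t=0 Psmf1 fell by 0.30 (adjusted p = 0.00225), Psmg2, a core assembly chaperone, fell by 0.21 and Ube3c, a ubiquitin ligase of the particle, fell by 0.22 (adjusted p = 0.00818 and 0.0335), and Uchl5 rose by 0.24 (adjusted p = 0.0194). Without HF-Q replicate 2 Ube3c did not pass (adjusted p = 0.0509), and with slide as a block neither Ube3c nor Uchl5 did (0.0642 and 0.0624).

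Of 5 genes of transcription control 2 rose in HF against t=0: Nfe2l2, known as an inducer of antioxidant genes, by 0.31 ± 0.08 (adjusted p = 0.00561) and Akirin2, a nuclear import factor of the proteasome, by 0.18 (adjusted p = 0.0440). Nfe2l1, the factor known to induce proteasome genes when the protease is impaired, did not pass. Of 13 genes of ubiquitin and substrate delivery 4 rose: the shuttle factor Ubqln1 rose by 0.36 (adjusted p = 0.000392), Rad23b by 0.18, and the segregase cofactors Ufd1 and Nploc4 by 0.18 and 0.15 (adjusted p = 0.0281, 0.0413 and 0.0238). Rad23b and Nploc4 did not pass with loess (0.0917 and 0.112), nor Akirin2 and Ufd1 with slide as a block (0.0818 and 0.078). Of 14 genes of antigen processing and interferon response 1 rose in HF, Irf1 (0.57 ± 0.18, adjusted p = 0.0251), and 2 in HF-Q against t=0, Irf1 (0.50, adjusted p = 0.00626) and Igtp (0.90, adjusted p = 0.00402). In HF-Q against HF no gene of these 4 lists passed. Their medians in HF against t=0 were 0.10, 0.17, 0.14 and 0.19, beside a median of 0.15 over the 42 proteasome genes and 0.0643 over all probes of the brightest class.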

How the data were processed

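Liver RNA of 36 mice (12 per group) was measured on 2-colour Agilent arrays. Per the labels, scans were read with Agilent Feature Extraction 10.5.1.1. The values tested are the log2 values deposited by the authors for 23256 spots. The study's methods describe a cut at 2 times background on the average Cy5 and Cy3 signals. Some member probes kept had Cy3 signals below it, down to 1.701 times background. Set against the deposited scanner intensity columns, they equal log2 Cy5 minus log2 Cy3 plus the spot's mean log2 Cy3, without background subtraction, with each array centred on 1 common median (median absolute difference 0.019226, lowest r over arrays 0.99989). Spots of a probe were averaged, giving 21781 probes.

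Each pair of groups was fitted with limma 3.58.1 (R 4.3.3, lmFit and eBayes) without covariates, with Benjamini-Hochberg adjustment over all probes and a threshold of 0.05. A gene is represented by its brightest probe. Permutation tests used 100000 two-sided resamples (NumPy 2.4.6). Loess values came from scanner intensities after normexp with an offset of 50. Named genes were the catalytic and interferon-inducible subunits, members past the threshold, the members of each role with the largest differences, and genes of the pathway lists that passed (at most 6 a list). Ptprc, Clec4f, Cd74, HF replicate 9 and the 18 partner correlations were singled out after values were seen, and the members and lists were chosen with earlier results of these data known. Each of the 9 slides held 4 arrays and all 3 groups. No label says that the mice with the same replicate number belong together. In simulated data for control against baseline, 200 of 21781 probes were changed. The fit recovered 47 of 100 changes of 0.25 and 88 of 100 changes of 0.5 on the log2 scale. In the measured data 4645 probes passed, so the adjusted threshold was less strict there. The simulated shares therefore do not measure what the real fit missed. GRCm38.p6 promoters were RefSeq sequences. The array gene names are those of its design, and 57 of 66 member accessions were found in RefSeq, all with the same symbol. Some results of the pathway lists and partner correlations are not reported here.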

Additional observations from a re-analysis of the deposited data

How the results depend on the processing

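In quercetin against control mice, 1 member probe passed with the authors' values and 0 passed with median centring of the scanner signals, the Cy5 channel alone, slide as a fixed block, the replicate block, without HF-Q replicate 2 or without HF replicate 9, while loess without either mouse gave 1. In control against baseline mice, 17 passed, against 4 with Cy5 alone and 10 with no filter on dim probes. In quercetin against baseline mice, 6 passed, against 0 with median centring, 1 with Cy5 alone, 2 with slide as a fixed block, 10 without HF-Q replicate 2 and 3 with all 36 arrays in one fit. Over all probes, 513 passed in quercetin against control, against 77 with median centring, 180 with Cy5 alone and 210 with slide as a fixed block. There were 4645 in control against baseline, against 3074 with Cy5 alone, and 2596 in quercetin against baseline, against 396 with median centring and 1178 with Cy5 alone. Of the 9 correlations of members 5 passed, against 9 with median centring and 3 with Cy5 alone, and the relation of Psmb5 and Psmb7 turned to -0.04 with loess and -0.07 with Cy5 alone. The cause of these changes was not tested. Same-numbered mice of the 3 comparisons had median residual correlations of -0.00971, 0.0606 and 0.0327, with single pairs from -0.216 to 0.364. These correlations cannot settle whether the numbers pair mice. The replicate block gave 0, 19 and 7 member probes, 4 correlations and 2 of 9 exchange tests (0 without it). The settings "without HF replicate 9" and its loess form were chosen after seeing the data. Over the called member genes and their alternatives, 198 values kept direction and side of the threshold and 70 kept direction only. Signal near background limits the dim probes, such as that of Psma8.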
